A study of Mus musculus with 30 samples.

Results

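Metallothioneins and the genes that handle zinc were followed across 8 groups of mouse quadriceps libraries. The set held 5 of the 56748 genes in the count table, namely the metallothioneins Mt1 and Mt2, the transcription factor Mtf1, and the zinc transporters Slc30a1 and Slc39a14. These genes were selected on earlier results from the same libraries, in which metallothionein levels stood out at the top dose. Their fold changes and adjusted p-values are therefore a description and no independent test.

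The study examined whether L9, a short locked nucleic acid oligonucleotide directed at expanded CUG repeats, acts in muscle when carried on a bottlebrush polymer (the conjugate is called pacDNA-L9). The labels give an age of 8 weeks for the mice of all groups, untreated ones included. Treated mice were injected by tail vein, and quadriceps was taken 2 weeks after the last injection. The 5 WT mice were untreated FVB/N animals, and the 8 NT mice were untreated homozygous HSA-LR animals of line 20b (genotype DM1 in the labels). All treated mice were HSA-LR as well. Carried L9 was given to 4 mice at a dose of 5.3 mg/kg, to 3 mice at 21.2 mg/kg and to another 3 at 42.4 mg/kg. A further 3 mice received free L9 and 2 received pacDNA with a scrambled oligonucleotide (pacDNA-Scr), both at 5.3 mg/kg, and 2 received 40 nmol of the polymer alone (Brush). The higher doses were reached by repeated injections, so that dose and number of injections cannot be told apart. HSA-LR mice carry the repeat in a human skeletal actin transgene, so that it is expressed in skeletal muscle and not under the control of the myotonic dystrophy gene.

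Metallothioneins are small, cysteine-rich proteins that bind zinc and copper. MTF1 is a zinc-sensing factor that binds metal response elements in front of the metallothionein genes and Slc30a1 when free zinc is high, so that binding protein and zinc export rise together. Slc30a1 (ZnT1) exports zinc from the cytosol across the plasma membrane, while Slc39a14 (ZIP14) imports zinc, iron and manganese and is known as an acute-phase gene. Metallothionein genes also respond to glucocorticoids, cytokines and oxidative stress, and in muscle they are known to be induced during atrophy.

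Library totals ran from 13605309 to 26956558 counts with a median of 20141850.5. The labels fall into a first set of 24 libraries and a second set of 6, and the second set contained only NT (2), pacDNA-L9 5.3 (2), pacDNA-L9 21.2 (1) and free L9 (1) mice. In 5 of those 6 libraries all 37 mitochondrial genes were listed at 0. Levels are given as CPM (counts scaled to a common library size with TMM factors), and 3 counts correspond to 0.106 to 0.268 CPM depending on the library, for counting error only. The 5 skeletal muscle fibre markers summed to between 83854 and 160676 CPM in every group, with none at 0. The sex read from Xist and Y-linked counts was female for all 3 mice at 42.4 mg/kg, for 4 of 8 NT and for 4 of 5 WT mice. All 3 libraries at 42.4 mg/kg carried a group name with a running number, a style shared by 9 of the 24 first-set libraries, whereas the others carried names of other forms.

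Mt1 (ENSMUSG00000031765) lies on chromosome 8 at 94905710 to 94906955 on the plus strand of GRCm39, and Mt2 (ENSMUSG00000031762) lies upstream of it at 94898819 to 94900207 on the same strand. Mtf1 (ENSMUSG00000028890) is on chromosome 4 at 124695897 to 124743593, Slc30a1 (ENSMUSG00000037434) on chromosome 1 at 191638808 to 191645361, and Slc39a14 (ENSMUSG00000022094) on chromosome 14 at 70540678 to 70588914. The promoter sequences of Mt1 and Mt2 are shown because both genes were high in the same libraries. They come from the RefSeq promoter table (GRCm38.p6), were matched base for base to GRCm39, and end where the exon at the RefSeq start begins. Capitals mark the core of the metal response element, searched as TGCACNC and TGCGCNC on both strands. The Mt1 stretch is chr8:94905467-94905709 and the Mt2 stretch, which lies within an intron of 2 longer annotated Mt2 transcripts, is chr8:94898996-94899131, both on the plus strand.
Mt1: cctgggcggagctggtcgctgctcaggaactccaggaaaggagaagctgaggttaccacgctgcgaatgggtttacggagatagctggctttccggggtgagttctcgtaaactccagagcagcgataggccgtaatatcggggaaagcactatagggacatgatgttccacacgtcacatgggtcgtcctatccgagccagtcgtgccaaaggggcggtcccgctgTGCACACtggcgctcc
Mt2: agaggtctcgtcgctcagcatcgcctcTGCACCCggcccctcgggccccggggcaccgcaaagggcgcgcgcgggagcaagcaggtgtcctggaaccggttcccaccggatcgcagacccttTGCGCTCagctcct

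The search window was the 250 bases before each RefSeq start. The core occurred 1 time in the window of Mt1, 3 times in that of Mt2 (the third match lay in the exonic part, which is not shown), 1 time in that of Slc30a1 and 0 times in that of Mtf1. Of 32817 promoter windows, 21.4% held at least 1 core, 5.18% held at least 2 and 1.26% held at least 3. The palindromic glucocorticoid response element was searched only as its exact full consensus. It was found in none of the 4 windows and in 0.00914% of all windows, too rarely for its absence here to be informative. The STAT site TTCNNNGAA was found in none of the 4 and in 7.01% of all. The antioxidant core TGACNNNGC occurred once in the Mt2 and once in the Slc30a1 window, and in 10.2% of all windows. These counts describe letters within 250 bases before 1 annotated start and say nothing of binding. Bases after that start and more distal elements were not searched. The counts depend on where the start is annotated, so they do not rank the genes by their number of elements.

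Mt1 was far higher at 42.4 mg/kg than in any other group. Its level was 240 CPM in mouse A, 839 CPM in mouse B and 272 CPM in mouse C. The 8 NT mice ranged from 6.19 to 48.2 CPM with a median of 13.1, and the 5 WT mice had 19.2, 7.13, 8.32, 12.5 and 19.8 CPM. The lowest mouse at 42.4 mg/kg thus stood 4.99 times above the highest NT mouse, and the groups did not overlap. On group means Mt1 was 24.0 times higher (450 ± 337 CPM, SD, n = 3, against 18.8 ± 14.7, n = 8).

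Outside the top dose Mt1 varied widely between mice of one group, and no group stood apart. At 5.3 mg/kg the 4 mice had 8.52, 25.3, 11.7 and 34.6 CPM. At 21.2 mg/kg the 3 mice had 13.3, 11.9 and 44.1 CPM. The free L9 mice had 12.1, 35.5 and 12.4 CPM, so free and carried L9 at the same dose covered the same range. Brush mice had 9.86 and 14.9 CPM, and pacDNA-Scr mice had 8.73 and 47.0 CPM. In order of group mean the levels ran from Brush (12.4 CPM) and WT (13.4) through NT (18.8), free L9 (20.0), pacDNA-L9 5.3 (20.0), pacDNA-L9 21.2 (23.1) and pacDNA-Scr (27.8) to pacDNA-L9 42.4 (450). Each neighbouring pair up to pacDNA-Scr overlapped, and only the step to 42.4 mg/kg exceeded the spread.

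Slc39a14, the importer, followed the same pattern with less spread in the low groups. Its level was 26.5 CPM in mouse A, 220 CPM in mouse B and 40.4 CPM in mouse C at 42.4 mg/kg. NT mice ranged from 7.99 to 13.5 CPM (median 10.9) and WT mice from 9.76 to 14.4 CPM (median 12.4). Every mouse at the top dose was above every NT and WT mouse, the lowest of them 1.96 times above the highest NT mouse, and mouse B was far above mice A and C. The remaining treated groups stayed close to NT, at 7.53 to 14.5 CPM for pacDNA-L9 5.3, 8.68 to 14.0 for pacDNA-L9 21.2, 10.7 to 11.5 for Brush and 7.79 to 9.29 for pacDNA-Scr. Free L9 mice had 5.08, 7.02 and 10.7 CPM, and the first 2 of these were the lowest values of all libraries.

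**Figure D1:**
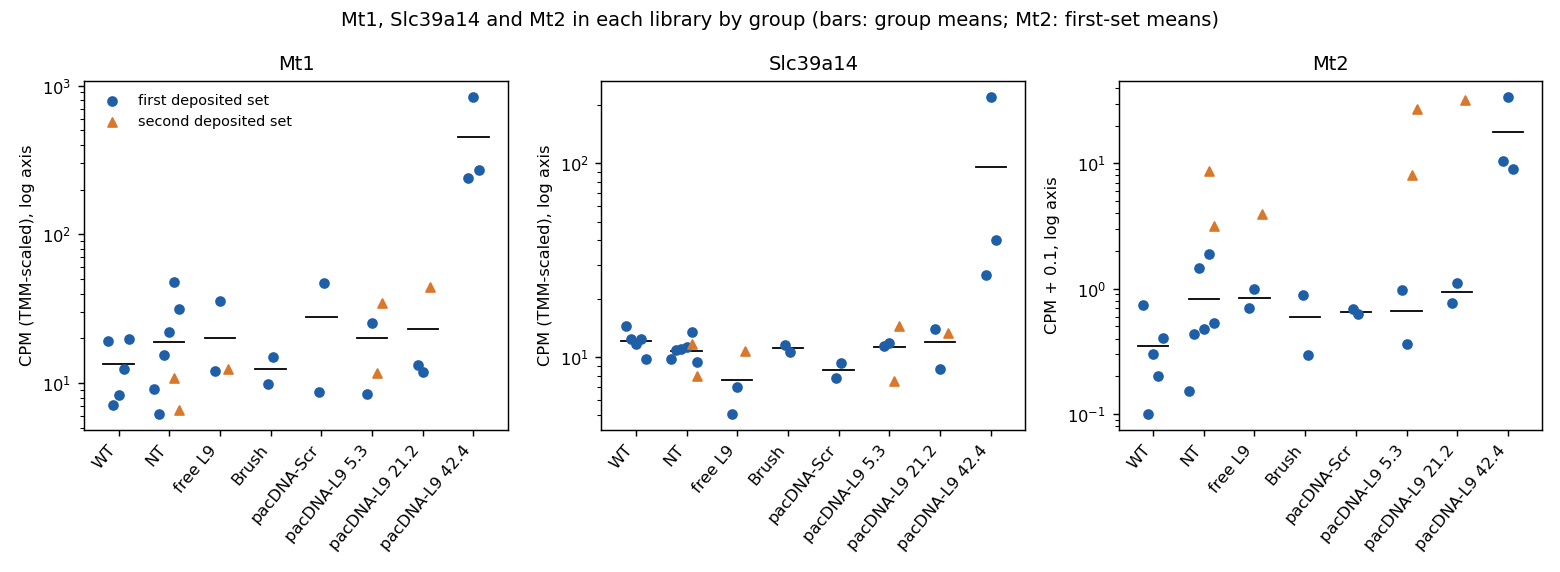
Level of Mt1, Slc39a14 and Mt2 in each of the 30 libraries by group, in CPM on log axes (0.1 was added for Mt2), with circles for the first and triangles for the second deposited set and bars for group means (first-set means for Mt2). The 3 mice at 42.4 mg/kg lie above all others for Mt1 and Slc39a14, with mouse B on top, and above all first-set mice for Mt2.

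Mt2 could be compared only within the first set, because its counts depended on the set. In the first set it had 0 to 41 counts (0 to 1.81 CPM) in the 21 libraries outside the top dose. WT mouse 2 had 0 of 17376897 counts, which allows up to 3 counts. At 42.4 mg/kg it had 222, 572 and 230 counts, or 10.4, 33.8 and 8.91 CPM in mice A, B and C. First-set NT mice ranged from 0.0543 to 1.81 CPM, so that the lowest mouse at 42.4 mg/kg stood 4.93 times above the highest of them. In the second set, which has no mouse at 42.4 mg/kg, Mt2 ran from 43 to 747 counts (3.07 to 32.1 CPM), while Mt1 was at 6.56 to 44.1 CPM there and at 6.19 to 48.2 CPM in the first set outside the top dose.

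The ratio of the metallothioneins showed the difference between the sets directly. In the first set Mt2 had between 0 and 10.3 counts for every 100 counts of Mt1, with a median of 3.29, and at 42.4 mg/kg the ratio was 4.34, 4.03 and 3.28. In the second set it was 30.9 to 80.2, with a median of 70.6, and the sets did not overlap. Of the Mt2 exon bases in GENCODE vM39, 82.4% lie under exons of Gm45774 (ENSMUSG00000110588), a long noncoding RNA on the opposite strand (chromosome 8, 94892504 to 94900040). Gm45774 had 42 to 638 counts in the second set, or 81.9 to 150 per 100 counts of Mt2, and 0 to 14 counts in the first set outside the top dose. At 42.4 mg/kg it had 22, 87 and 67 counts. The use of strand in counting is not given in the sources used here, so reads of Mt2 and Gm45774 cannot be told apart, and the part of the counting in the difference between sets was not tested. Mt1 shares no exon bases with a gene of the opposite strand.

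**Figure D2:**
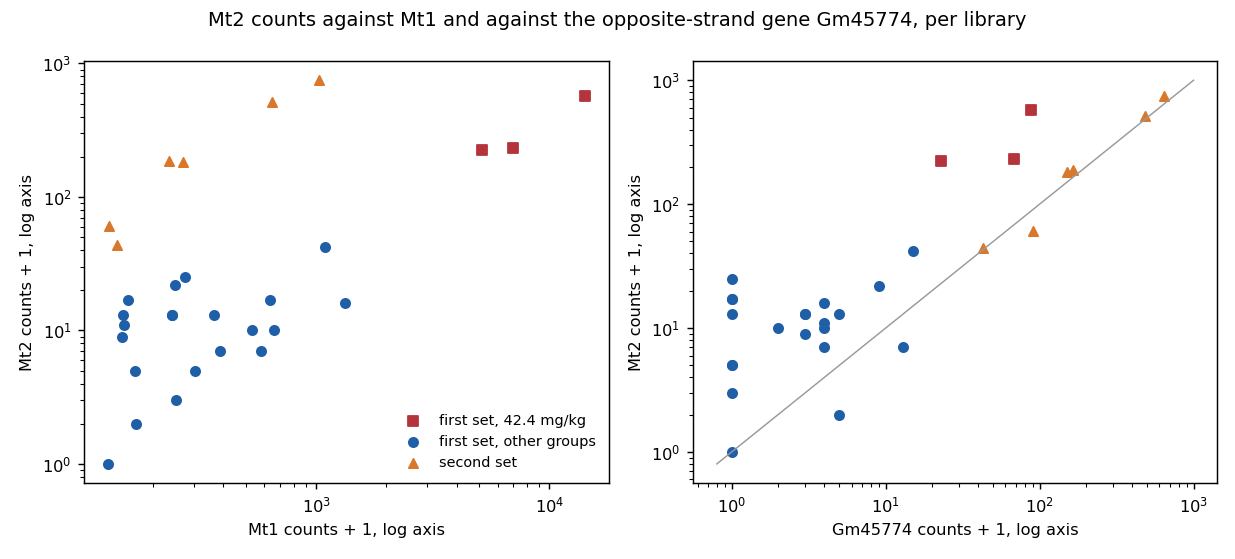
Mt2 counts in each library against Mt1 counts (left) and against counts of the opposite-strand gene Gm45774 (right, with a line of equal counts), on log axes after adding 1. Second-set libraries (triangles) have 30.9 to 80.2 Mt2 counts per 100 of Mt1, while first-set libraries, those at 42.4 mg/kg (squares) included, have at most 10.3.

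Mtf1, the factor itself, did not rise at any dose. At 42.4 mg/kg it was at 16.0, 14.6 and 13.4 CPM in mice A, B and C, below all 8 NT mice (16.7 to 26.8 CPM, median 18.4) and all 5 WT mice (19.3 to 21.4 CPM, median 19.4). The difference from NT did not pass the threshold in any of the fits given below. The other treated groups ranged from 18.6 to 23.4 CPM (pacDNA-L9 5.3), 18.9 to 20.1 (pacDNA-L9 21.2), 13.0 to 27.6 (free L9), 18.2 to 24.4 (Brush) and 17.9 to 18.1 (pacDNA-Scr). Free L9 mouse A, with 13.0 CPM, was the only library below the lowest mouse at the top dose. Second-set libraries were on the high side for Mtf1, at 19.7 to 27.6 CPM against 13.0 to 24.4 CPM in the first set outside the top dose.

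Slc30a1, the exporter, showed no common shift at the top dose. At 42.4 mg/kg it was at 8.63, 18.4 and 11.5 CPM in mice A, B and C, with mouse A below, mouse B above and mouse C within the NT range of 11.0 to 16.7 CPM. Group means ran from 10.0 CPM in Brush through 12.9 at 42.4 mg/kg, 13.3 in NT, 13.5 in free L9, 14.0 in pacDNA-Scr, 14.1 in WT and 14.3 at 5.3 mg/kg to 14.5 at 21.2 mg/kg. Both Brush mice (10.7 and 9.41 CPM) lay below every NT mouse, as did the lowest mouse of WT, of pacDNA-L9 5.3 and of free L9 (each 10.8 CPM). Within NT, the 4 female mice (11.0 to 11.9 CPM) lay below the 4 male mice (14.0 to 16.7 CPM), a split noticed after the values were seen. Over the 27 libraries outside the top dose the sexes overlapped, at 10.7 to 18.1 CPM in 17 females and 9.41 to 19.3 CPM in 10 males.

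**Figure D3:**
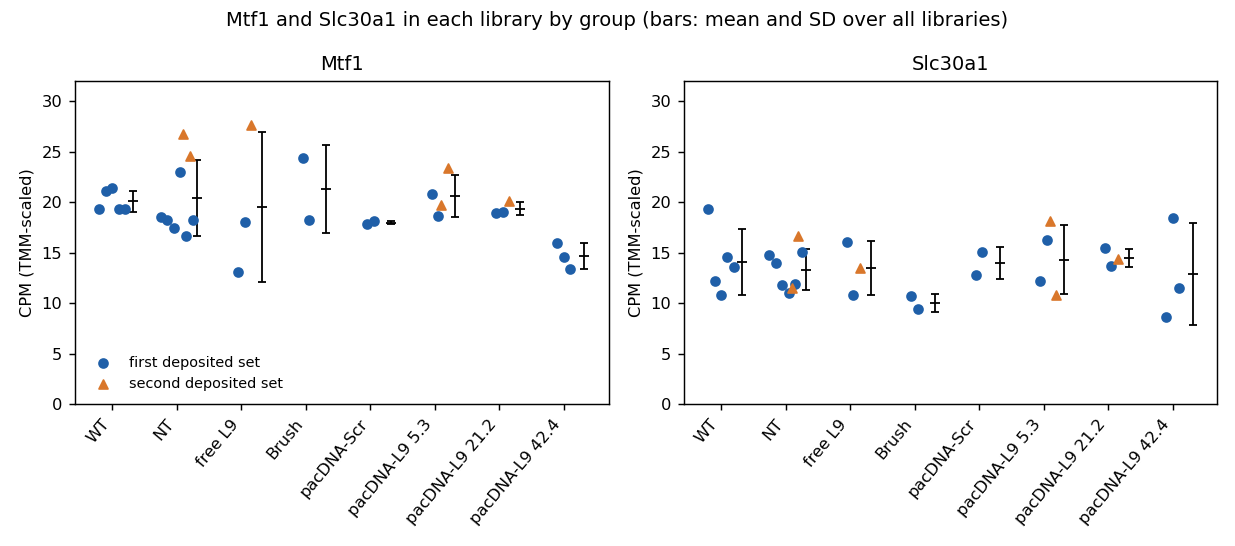
Level of Mtf1 and Slc30a1 in each library by group, in CPM, with circles for the first and triangles for the second deposited set and bars for the mean and SD over all libraries of a group. Mtf1 at 42.4 mg/kg (13.4 to 16.0 CPM) lies below the NT range of 16.7 to 26.8 CPM, while Slc30a1 at 42.4 mg/kg (8.63 to 18.4 CPM) reaches beyond its NT range of 11.0 to 16.7 CPM on both sides.

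Per kilobase of exon, the level of Mt1 in NT was 15.1 CPM, that of Slc30a1 2.35, that of Mtf1 2.24 and that of Slc39a14 0.885. At 42.4 mg/kg these levels were 361 for Mt1, 2.27 for Slc30a1, 1.61 for Mtf1 and 7.91 for Slc39a14. On group means Slc39a14 thus moved from below to above Slc30a1 in level per length, with mouse B far above mice A and C. Slc30a9, another exporter, was at 8.39 in NT and 7.85 at 42.4 mg/kg.

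In edgeR's quasi-likelihood fit to all 30 libraries, 2 of the 5 genes passed an adjusted p of 0.05 for 42.4 mg/kg against NT, beside 2.57% of the 17518 genes tested. Mt1 had a log2 fold change of 4.58 (SE 0.61, adjusted p = 8.3e-05) and Slc39a14 of 3.16 (SE 0.34, adjusted p = 4.8e-06). Mt2 had 3.13 (SE 1.14, adjusted p = 0.196), with the second-set NT mice in the comparison. Mtf1 had -0.48 (SE 0.17, adjusted p = 0.174) and Slc30a1 -0.05 (SE 0.20, adjusted p = 0.942). The 95% interval for Slc30a1 ran from -0.45 to 0.34 on the log2 scale.

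In the fit to the 24 first-set libraries alone, 3 of the 5 genes passed, beside 2.70% of 15832 genes. The log2 fold changes were 4.32 for Mt1 (SE 0.63, edgeR adjusted p = 0.000747), 4.57 for Mt2 (SE 0.65, adjusted p = 0.000357) and 3.09 for Slc39a14 (SE 0.38, adjusted p = 9.0e-05). Both metallothioneins thus differed from NT by about the same factor, 20.0 for Mt1 and 23.7 for Mt2. Mtf1 had -0.36 (SE 0.13, adjusted p = 0.196) and Slc30a1 -0.04 (SE 0.21, adjusted p = 0.968). Over all alternative fits, Mtf1 ran from -0.55 to -0.21 against NT and never passed (edgeR or DESeq2, lowest adjusted p = 0.0650).

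Mouse B set much of the size of these changes, while Mt1 and Slc39a14 passed without it as well. Without it, the fold change from the 30-library fit fell from 24.0 to 13.6 for Mt1 (adjusted p = 0.00372, edgeR) and from 8.92 to 3.12 for Slc39a14 (adjusted p = 0.000252). In the first set without it, Mt2 was 13.1 times higher (adjusted p = 0.0108). Slc30a1, with its highest top-dose value in mouse B, was at -0.40 on the log2 scale without it (adjusted p = 0.693). With the naming style of the libraries as a covariate, the fold was 12.9 for Mt1 (adjusted p = 0.0149), 27.9 for Mt2 (adjusted p = 0.00747) and 10.6 for Slc39a14 (adjusted p = 0.000208). Outside the top dose, the 6 running-number libraries had Mt1 at 12.1 to 47.0 CPM (median 25.7). The 15 with other names had it at 6.19 to 48.2 CPM (median 11.9), so Mt1 tended to be higher under the style of the top dose. The medians in the same 2 sets of libraries were 9.39 and 11.5 CPM for Slc39a14 and 18.2 and 19.0 CPM for Mtf1. With sex as a covariate the fold was 22.0 for Mt1 and 9.23 for Slc39a14, and the NT females alone had Mt1 at 10.8 to 48.2 CPM.

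Against WT, 3 of 5 genes passed in the 30-library fit, beside 7.90% of all genes tested, and 4 of 5 in the first set, beside 10.8%. In the first set the log2 fold changes were 5.06 for Mt1 (SE 0.70), 6.10 for Mt2 (SE 0.77) and 2.96 for Slc39a14 (SE 0.41), with edgeR adjusted p of 9.1e-05, 1.8e-05 and 5.0e-05. Mtf1 was the fourth, at -0.46 (SE 0.14, adjusted p = 0.0353), where the 30-library fit gave -0.46 (SE 0.18, adjusted p = 0.139). The fold for Mt2 rests on 0 to 12 counts in each WT library. Without mouse B, Mt2 had an adjusted p of 0.0627 against WT in the 30-library fit. This comparison shares its 3 treated mice with the one against NT, so the similar values are not independent.

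**Figure D4:**
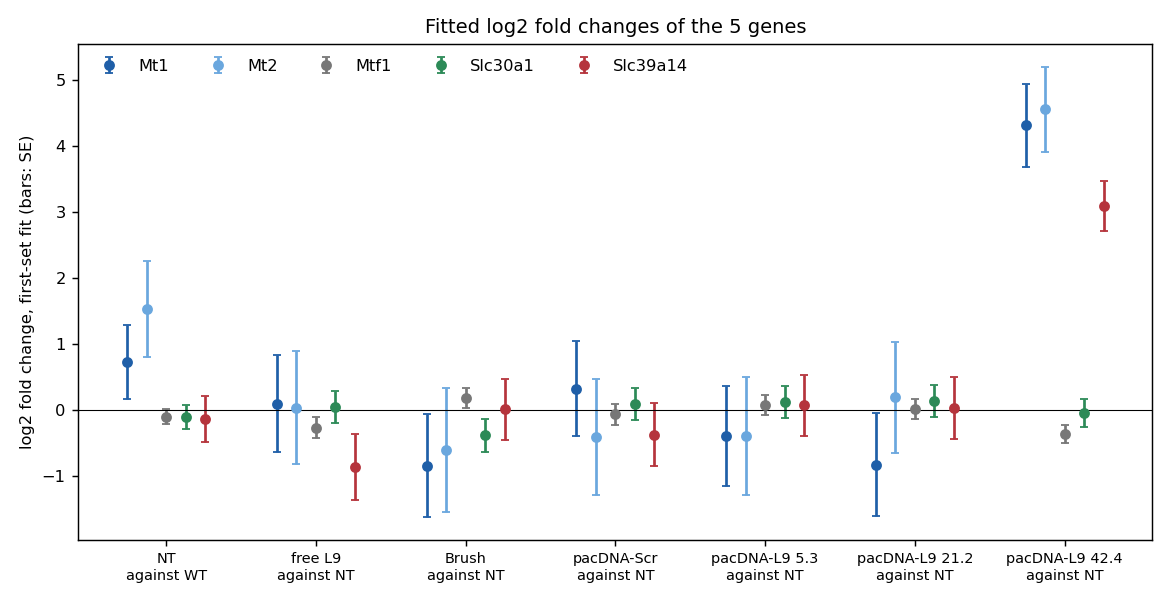
Log2 fold change of each of the 5 genes in 7 comparisons, from the fit to the 24 first-set libraries, with bars for 1 SE. Mt1, Mt2 and Slc39a14 lie at 4.32, 4.57 and 3.09 for 42.4 mg/kg against NT, and none of the 5 genes passed the threshold in the other 6 comparisons shown.

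The untreated disease model did not differ from WT in any of the 5 genes at an edgeR adjusted p of 0.05, beside 4.97% of all genes called (5.45% in the first set). Mt1 had a log2 fold change of 0.49 (SE 0.56) and Slc39a14 of -0.18 (SE 0.31). At an unadjusted p under 0.05 there was 1 gene, Mt2, and DESeq2 called the same 1. In the first set, free of the second-set NT mice, Mt2 had 1.53 (SE 0.73, edgeR adjusted p = 0.279).

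None of the 5 genes passed in the lower doses and controls, in either edgeR fit. Free L9 and pacDNA-Scr were given at 5.3 mg/kg only and Brush at 40 nmol only. No control was thus matched to 42.4 mg/kg, and the part of the polymer in the rise there was not tested. The share of genes called was 0% for pacDNA-L9 5.3, 0.0514% for pacDNA-L9 21.2, 0.126% for free L9, 0% for Brush and 0% for pacDNA-Scr, each against NT. The share for free L9 depended on the libraries used, with 2.24% called in the first set, and the 22 genes of the 30-library fit became 242 without free L9 mouse A, 314 without free L9 mouse C and 397 when libraries with all mitochondrial genes at 0 were left out, while 0 of the 5 genes passed in these fits. Slc39a14 was lower in free L9 than in NT in the first set when mouse B at 42.4 mg/kg, which is in neither group, was left out (log2 fold change -0.86, edgeR adjusted p = 0.0464, against 0.302 with it). At an unadjusted p under 0.05 the 30-library edgeR fit had 0 of the 5 genes in each of these comparisons, with the exception of Mt2 at 21.2 mg/kg, and DESeq2 called 0 of the 5. Where edgeR called 0 of all genes, 250 genes (pacDNA-L9 5.3), 217 (Brush) and 182 (pacDNA-Scr) had an unadjusted p under 0.05, and DESeq2 called 1, 83 and 311. For Mt1 the log2 fold change was 0.09 (SE 0.59) at 5.3 mg/kg, 0.30 (SE 0.64) at 21.2 mg/kg, 0.09 (SE 0.65) for free L9, -0.60 (SE 0.80) for Brush and 0.57 (SE 0.73) for pacDNA-Scr. For Mt1 at 5.3 mg/kg the limits of the 95% interval were -1.06 and 1.24, and those for Brush were -2.16 and 0.96. These intervals give the changes that the values allow and are not limits of detection.

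At the matched dose of 5.3 mg/kg, pacDNA-L9 and free L9, which differ by the conjugated polymer, were compared directly, without pairing of mice. None of the 5 genes passed, beside 0.0114% of all genes (0.916% in the first set, where 0 of the 5 passed as well), and 0 had an unadjusted p under 0.05 in edgeR or an adjusted p under 0.05 in DESeq2. The difference in Mt1 was 0.00 on the log2 scale with a 95% interval from -1.44 to 1.44, and that in Slc39a14 was 0.58 with an interval from -0.27 to 1.42.

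The wider families were examined to see whether other genes of zinc handling moved at 42.4 mg/kg. Of the 4 metallothionein genes, Mt3 (expressed mainly in brain) was measurable at 2.83 to 5.21 CPM, against 1.95 to 5.16 in NT (log2 fold change 0.54, SE 0.48, edgeR adjusted p = 0.648), and Mt4 stayed under the limit for testing. Mt3 was higher against WT (log2 fold change 1.77, SE 0.52, adjusted p = 0.0352), where WT mice had 0.281 to 3.34 CPM and overlapped the treated mice.

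Among the zinc exporters, 0 of 7 tested Slc30a genes passed in either direction by edgeR, 0 had an unadjusted p under 0.05 and DESeq2 called 0. Their median log2 difference was -0.05, beside -0.06 over all genes tested. The largest difference was in Slc30a2, a vesicular transporter also reported to respond to MTF1, with 6.43, 35.8 and 11.3 CPM in mice A, B and C against 1.58 to 12.8 CPM in NT (log2 fold change 1.42, edgeR adjusted p = 0.432). Only mouse B was outside the NT range. Slc30a9, the exporter with the highest level per kilobase, had 113 to 136 CPM at 42.4 mg/kg and 114 to 150 CPM in NT.

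Among the importers, Slc39a14 was the 1 of 12 tested Slc39a genes that passed, beside 2.57% of all genes tested. The median over the 12 was 0.08. Slc39a8, the closest relative of Slc39a14, was at 0.504 to 1.06 CPM at 42.4 mg/kg and at 0.341 to 1.09 CPM in NT (log2 fold change 0.23, edgeR adjusted p = 0.881). Slc39a10, an importer reported to be repressed by MTF1, was at 7.50 to 9.15 CPM and within its NT range of 4.00 to 15.1 CPM.

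Of 8 other genes reported to respond to MTF1, 0 passed in either direction by edgeR or DESeq2, 1 had an unadjusted p under 0.05 in edgeR, and the median was 0.15, with Gclc at 0.02, Selenow at -0.06, Ndrg1 at 0.29, Csrp1 at 0.44, Slc40a1 at -0.08 and Pgf at 0.25. Among 6 copper genes and 8 iron genes tested, 0 passed by edgeR or DESeq2 (0 and 1 at an unadjusted p under 0.05 in edgeR), with medians of 0.11 and -0.01.

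Lists of genes that respond to other inducers of metallothioneins were read in the same way. They were compiled with earlier results of these libraries known, so their counts are a description. Of 26 genes known to respond to glucocorticoids, 18 were higher and 0 lower at 42.4 mg/kg against NT, beside 2.57% of all genes called. Their median log2 difference was 1.43 beside -0.06 over all genes. In the first set 15 of the 26 were higher, beside 2.70% of all genes called, with a median of 1.40 beside -0.03. Most of these calls rested on mouse B. Without it, 3 of the 26 passed (Trim63, Foxo1 and Cebpd), with a median of 0.88 and 63 genes called in all, while Mt1 and Slc39a14 still passed. With naming style as a covariate 10 of the 26 passed, and 4 in the first set with that covariate. The numbers of all genes called in these fits are given in the last section.

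Fkbp5, a co-chaperone of the glucocorticoid receptor, was at 199, 495 and 251 CPM in mice A, B and C against 14.0 to 75.9 in NT (log2 fold change 2.95, SE 0.55, edgeR adjusted p = 0.00269). Tsc22d3 (GILZ) was at 597, 787 and 604 CPM against 185 to 339 in NT (1.42, SE 0.30, adjusted p = 0.00747). Cebpd, a factor induced by glucocorticoids and in the acute phase, was at 54.4, 141 and 71.5 CPM against 5.38 to 23.7 (2.72, SE 0.40, adjusted p = 0.000244). As with Mt1 and Slc39a14, mouse B was the highest in each of these 3 genes and mouse A the lowest. This order was not particular to genes that passed, since Slc30a1, Per1 and Klf9, which did not pass, had it as well. Mt2, Mtf1, Socs3 and Hmox1 had other orders.

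Further genes that passed included Pdk4, which limits pyruvate oxidation (log2 fold change 3.77, edgeR adjusted p = 0.00511), the muscle ubiquitin ligases Trim63 (2.42, adjusted p = 1.2e-05) and Fbxo32 (1.59, adjusted p = 0.00549), the factors Foxo1 (1.91), Foxo3 (1.04) and Klf15 (1.53), and glutamine synthetase Glul (1.57). Many of these genes are also known from fasting and muscle atrophy. Zbtb16 was at the threshold (1.21, adjusted p = 0.0497, and 0.0583 in the first set). Per1 (1.00, adjusted p = 0.346) and Klf9 (0.45, adjusted p = 0.278), both direct receptor targets in many tissues, did not pass. The receptor Nr3c1 had -0.33 (adjusted p = 0.583) and Hsd11b1, the enzyme that regenerates active glucocorticoid, had -0.91 (adjusted p = 0.437).

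Of 12 tested genes of STAT3 signalling and the acute phase, 3 were higher and 0 lower, beside 2.57% of all genes called. The 3 were Cebpd, the interleukin-6 receptor Il6ra (2.26, SE 0.41, edgeR adjusted p = 0.00204) and the protease inhibitor Serpina3n (1.79, SE 0.25, adjusted p = 0.000111). The median was 0.45, and without mouse B 2 of the 12 passed (Cebpd and Serpina3n). With naming style as a covariate the same 3 passed over all libraries and 1 (Serpina3n) in the first set. Socs3, an early STAT3 target, had -0.84 (adjusted p = 0.477). Il6ra and Serpina3n were also higher in NT than in WT, where Mt1 was not called, by 1.65 (adjusted p = 0.0128) and 0.94 (adjusted p = 0.0149) on the log2 scale.

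Of 9 tested genes of NRF2 and oxidative stress, 2 were higher, beside 2.57% of all genes called, and the median was 0.13. The 2 were Hmox1 (1.01, SE 0.26, edgeR adjusted p = 0.0272) and Srxn1 (0.93, SE 0.22, adjusted p = 0.0183). Without mouse B 0 of the 9 passed in the 30-library fit, where 2 of them had passed with it, and 1 (Hmox1) passed in the first set. With naming style as a covariate 0 of the list passed in either edgeR fit, and 2 had an unadjusted p under 0.05 in each. DESeq2 called both genes and also Slc7a11, the cystine transporter, as lower, at 0 CPM in all 3 mice at 42.4 mg/kg and 0 to 2.69 CPM in NT (edgeR adjusted p = 0.214). Nqo1, a classical NRF2 target, had 8.56 to 10.2 CPM at 42.4 mg/kg and 8.72 to 10.4 in NT. Unlike Mt1, Hmox1 was lowest in mouse B, at 10.8, 7.62 and 9.96 CPM in mice A, B and C.

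**Figure D5:**
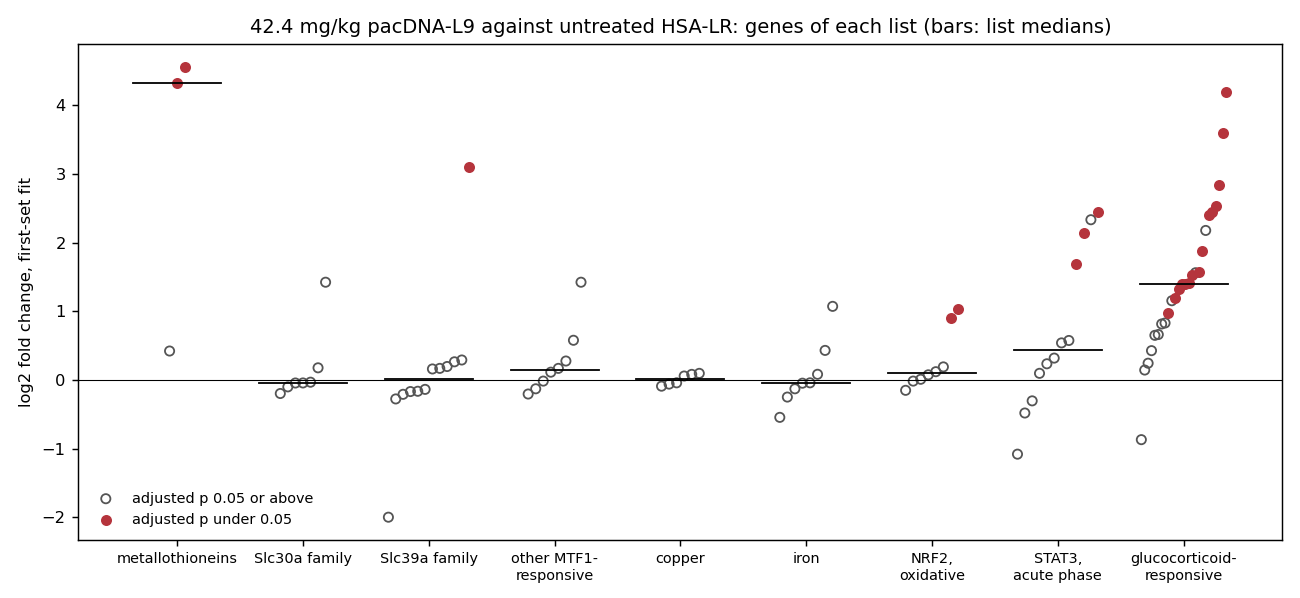
Log2 fold change for 42.4 mg/kg against NT from the first-set fit for each tested gene of 9 lists, with filled points for an adjusted p under 0.05 and bars for list medians. Mt1, Mt2 and Slc39a14 stand apart from the other metallothionein, Slc30a and Slc39a genes. Of 26 glucocorticoid-responsive genes 15 are filled, beside 2.70% of all genes called.

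Markers of other cells were read beside these results. Of 6 macrophage markers, 4 were higher at 42.4 mg/kg against NT (Cd68, Csf1r, C1qa and C1qb), beside 2.57% of all genes called. Without mouse B 2 of them passed (Cd68 and C1qb). In the first set with naming style as a covariate 2 passed (Csf1r and Cd68). The 6 markers summed to 103 to 147 CPM at 42.4 mg/kg, 37.4 to 68.1 in NT and 31.3 to 53.8 in WT. The sum was also 90.5 to 105 CPM in Brush and 78.2 to 98.1 at 5.3 mg/kg, groups in which Mt1 was within the NT range. The 4 neutrophil markers summed to 0.469 to 2.89 CPM at 42.4 mg/kg and to at most 1.01 in NT, with Ly6g at 0 at the top dose. The 5 adipocyte markers summed to 51.6 to 90.1 CPM against 12.3 to 1285 in NT. In bulk tissue more cells of a type and more RNA per cell cannot be told apart, and the part of these cells in the metallothionein levels was not tested.

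Within groups, the co-variation of Mt1 and Mt2 with the other genes was measured over the 24 first-set libraries as the correlation of deviations from the group mean on the log2 CPM scale, with p-values from permuting libraries within groups. Of 23 pairs, 0 passed after Benjamini-Hochberg adjustment. The largest correlations of Mt1 were with Tsc22d3 (Pearson r = 0.57, permutation p = 0.0400, adjusted 0.341; Spearman rho = 0.53, p = 0.0535), Slc39a14 (r = 0.45, p = 0.0180, adjusted 0.341; rho = 0.46, p = 0.0388) and Mt2 (r = 0.45, p = 0.0628, adjusted 0.343; rho = 0.36, p = 0.124). Without the 2 libraries farthest from the median of Mt1 (NT 5 and NT 2), r was 0.48, 0.48 and 0.34. That check kept the 3 mice at 42.4 mg/kg, which had the largest deviations of Slc39a14. These were -1.22, 1.83 and -0.61 in mice A, B and C, with -0.66, 1.14 and -0.48 for Mt1. The correlation of Mt1 with Slc39a14 thus leaned on the top dose. Leaving out each library in turn gave r of 0.33 to 0.49 for this pair. Deviations taken within condition and naming style left out libraries alone in their combination, among them all Brush and pacDNA-Scr mice. Over the libraries that remained, r was 0.48, 0.57 and 0.58. Mt1 with Slc39a14 was the 1 pair to pass there (permutation, adjusted p = 0.00943). Mt1 and Mtf1 gave r = -0.07 (permutation p = 0.799) and Mt1 and Slc30a1 r = 0.29 (p = 0.248). The genes whose deviations were most like those of Mt1 among 9351 genes at 5 CPM or more were Anp32a (r = 0.84), Npm1 (0.80), Mrpl35 (0.80), Car4 (0.77) and Ghdc (0.77). For Mt2 they were Rpl31-ps8 (0.74), Uchl5 (0.72), Rbmxl1 (0.71), Capzb (0.69) and Macroh2a1 (0.69). These genes were picked for their correlation over the same 24 libraries, and their r is a description.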

How the data were processed

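Poly(A)-selected quadriceps RNA of 30 mice was sequenced. Per the submitters' processing notes in the labels, the authors aligned reads to GRCm39 with HISAT2 2.0.5 and deposited raw counts per gene, with no normalization. The counting options and strand setting are not given in the sources used here. All 30 columns were mapped to groups by name, and 1 WT column matched the WT group but the name of no single labelled mouse, so that it was used as a WT replicate without a number. Of 56748 genes, 56017 matched GENCODE vM39 on the same build.

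Genes were kept by filterByExpr and scaled by TMM, and all 8 groups were fitted with edgeR 4.0.16 (R 4.3.3, quasi-likelihood test, Benjamini-Hochberg adjustment over all genes tested). A second fit used the first set only. DESeq2 1.42.0 was an alternative. SEs are the size of the log2 fold change divided by the square root of F, and 95% intervals are the estimate with a normal approximation. Alternatives covered scaling, filters, sets, covariates, DESeq2 and single libraries, and 2 were added after seeing the data. The fit was tested on simulated data. P-values measure the spread between these libraries. Correlations used 100000 resamples (20000 when a library was left out, with numpy 2.4.6 and scipy 1.17.1).

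The members and gene lists were chosen with earlier results of these data known. Named genes are the 5 members, list genes that passed an adjusted p of 0.05 or are discussed as list members, the genes of the correlation family, and the 5 genes most like Mt1 and Mt2. Members of the other lists, Gm45774 and the sex split of Slc30a1 were named after their values were seen. Same-numbered NT and WT mice (numbers 1 to 4) correlated by -0.03 to 0.14. Same-lettered pacDNA-L9 5.3 and free L9 mice correlated by 0.41 to 0.68 in their deviations from group means. In both groups A and B fall in the first and C in the second set, so the sets enter these correlations. The letters state no pairing, so the comparison reported was unpaired and a block by letter was only an alternative.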

Additional observations from a re-analysis of the deposited data

How the results depend on the processing

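At 42.4 mg/kg against NT, Mt1 and Slc39a14 stayed higher and past the threshold in every alternative run. These covered scalings, filters, covariates, subsets, DESeq2 and each library left out. Log2 fold changes were 3.50 to 4.95 for Mt1 and 1.60 to 3.60 for Slc39a14. The highest adjusted p was 0.0456 for Mt1, close to the threshold, and 0.00601 for Slc39a14 (edgeR or DESeq2). The lowest Mt1 fold change came from the first set with naming style as a covariate. Mt2 ranged from 2.26 to 5.07 and passed in 6 of 43 alternatives, all of which remove or model the second set or the naming style. The count of the 5 genes called was 2 to 3 for this comparison and 2 to 4 against WT. Leaving out each library in turn gave 2 to 2 genes against NT, 2 to 3 against WT and 0 to 0 in the other comparisons. DESeq2 called 1 gene for NT against WT, and 1 gene (Slc39a14, lower, adjusted p = 0.0464) was called for free L9 against NT in the first set without mouse B at 42.4 mg/kg, an alternative added after seeing the data; the 30-library edgeR fit called 0 in both. The cause was not tested. No called gene changed direction.

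Over all genes, 450 were called at 42.4 mg/kg against NT, 63 without mouse B, 90 in the first set without it, 240 with naming style as a covariate, 110 in the first set with that covariate (added after seeing the data) and 1366 by DESeq2, which called 522 higher and 844 lower where edgeR called 336 and 114. Without free L9 mouse B it was 681. For NT against WT edgeR called 871, DESeq2 1972, a fit to these groups alone 1311 and the fit without free L9 mouse B 1349. For 42.4 mg/kg against WT the count was 1384, 2086 by DESeq2 and 702 without mouse B. For free L9 against NT it was 22, 354 in the first set and 0 in a fit to these groups alone, and for pacDNA-L9 5.3 against free L9 it was 2, 145 in the first set and 64 by DESeq2. For pacDNA-L9 21.2 against NT it was 9, with 2 in the first set and 16 by DESeq2. With the replicate block, 0 of the 5 genes passed for pacDNA-L9 5.3 against free L9 and for NT against WT, as without it. With the block, 0 of all genes were called in the first pair and 631 in the second, against 0 and 680 in the same mice without it. Of the 23 correlations, 1 (Mt1 with Slc39a14) passed with deviations taken from condition and naming style together, over fewer libraries. When 1 library was left out, 0 to 1 passed. The pairs that passed on leaving out a library were Mt1 with Tsc22d3 and Mt1 with Fkbp5 (lowest permutation adjusted p = 0.0402 and 0.0437). Mt1 with Slc39a14 did not pass there (lowest 0.0931). Groups of 2 or 3 mice limit the lower doses and controls.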
